A study of Homo sapiens with 27 samples.

Results

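Replication-independent histone variants are the histones a cell can make at any point of the cell cycle, and their mRNAs end in a poly(A) tail. The 8 genes H2AZ1, H2AZ2, H2AX, H2AJ, MACROH2A1, H3-3A, H3-3B and H1-10 were taken by name from the 34464 genes of the deposited table. The rule used no measured value, but it was set with earlier results of these data known. All 8 were among the 14611 genes that passed the filter of a mean above 1 FPKM (fragments scaled to the length of the transcript and the depth of the library) outside the mitochondrial genome. In U2OS, a human osteosarcoma cell line, TPR, a protein of the nuclear pore's basket, was depleted for 5 days with either of 2 lentiviral shRNAs, TPR A or TPR D, and a scrambled shRNA served as control. For each shRNA there were 3 cultures, and poly(A)+ RNA of the nuclear fraction, the cytoplasmic/ER fraction and whole cells of every culture was sequenced, which made 27 libraries. The question asked was which RNAs need TPR to leave the nucleus, and its measure was the N/C ratio, the nuclear over the cytoplasmic/ER level of an RNA.

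Histones package DNA into nucleosomes, each with a core of H2A, H2B, H3 and H4, while linker histone H1 binds the DNA between them. Replication-dependent histone genes are clustered, lack introns, and are expressed in S phase as mRNAs that end in a stem-loop in place of a poly(A) tail. The variants replace these histones throughout the cell cycle. H2A.Z marks promoters, H2A.X is phosphorylated beside DNA breaks, macroH2A carries a large extra domain and is found on repressed chromatin such as the inactive X chromosome, and H3.3 enters active genes and, by another chaperone, repeats and telomeres.

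The 3′ ends of the mRNAs show how they differ from other histone mRNAs, so the poly(A) signals found in the last 50 nt of the canonical transcripts (GENCODE release 44 on GRCh37) are printed as 30 bases of the mRNA strand, with the signal in capitals. AATAAA was searched first and ATTAAA where AATAAA was missing, on the mRNA strand alone. Only the last match is in capitals, and the H3-3A window also holds an earlier ATTAAA left in lower case.
H2AZ1, chr4:100869247-100869276 (−): gtggataagttcAATAAAggtcatatccca
H2AX, chr11:118964591-118964620 (−): tggactaattttATTAAAggattgtttttt
H2AJ, chr12:14927927-14927956 (+): ccggcgggagccAATAAAgttggtgaaaat
H3-3A, chr1:226259681-226259710 (+): ctattaaaatacATTAAActatacctgctt
H3-3B, chr17:73772517-73772546 (−): ggatgagactaaAATAAAatttttgaagtt
H1-10, chr3:129033618-129033647 (−): ttttttgggcacAATAAAgcgtttaaacct
AATAAA was present in 4 of the 8 (H2AZ1, H2AJ, H3-3B and H1-10) and ATTAAA in H2AX and H3-3A, and these windows of H2AZ2 and MACROH2A1 held neither. Of 19553 canonical protein-coding transcripts, 64.1% held AATAAA there and a further 14.1% ATTAAA without AATAAA. Of 64 replication-dependent histone transcripts, 3 held either hexamer (4.69%).

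The histone stem-loop, the 3′ end signal of replication-dependent histone mRNAs, was searched on the mRNA strand of the same transcripts. It was found in 64 of those 64 transcripts and in 111 of all 19553 (0.568%). Among the variants it was in H2AX alone, in the window shown here with the stem-loop in capitals.
H2AX, chr11:118965601-118965630 (−): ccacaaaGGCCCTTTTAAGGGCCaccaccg
It began at base 553 of the 1592 nt mRNA and ended 1024 nt before its 3′ end, so the H2AX gene held both kinds of end signal. A match in these letters is a description and not evidence that the site was used. FPKM per gene do not separate the short from the long form, and RNA without a poly(A) tail was not selected.

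The genes ranged from compact to long. H2AX (chr11:118964584-118966175), H1-10 (chr3:129033614-129035129) and the canonical transcript of H2AJ (gene at chr12:14927339-14930936) had 1 exon, with pre-mRNAs of 1592, 1516 and 620 nt. H2AZ1 (chr4:100869243-100871512) had 5 exons within 2188 nt and H3-3B (chr17:73772515-73781974) 4 exons within 3346 nt. H3-3A (chr1:226249552-226259720) spanned 9304 nt with 4 exons, H2AZ2 (chr7:44866390-44887686) 16110 nt with 5, and MACROH2A1 (chr5:134670071-134735604) 64851 nt with 9. Of these pre-mRNAs only that of MACROH2A1 was longer than the median of the protein-coding genes tested, 22871 nt.

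H3-3A and H3-3B encode the same protein, and H2AZ1 and H2AZ2 nearly the same one, from different bases. The first 30 coding bases show this, with each base that differs from the paralogue in capitals.
H3-3A: atggcTcgTacAaagcagactgcCcgCaaA
H3-3B: atggcCcgAacCaagcagactgcTcgTaaG
H2AZ1: atggctggCggTaaGgctggaaaggacTCC
H2AZ2: atggctggAggCaaAgctggaaaggacAGT
Over the whole coding sequence H3-3A and H3-3B differed at 88 of 408 nt (78.4% identical), and H2AZ1 and H2AZ2 at 75 of 384 nt (80.5% identical). Reads can nevertheless be shared with other copies. Of the stretches of 31 bases in the H3-3A mRNA, 40.5% also occurred in another gene and 36.6% in pseudogenes, and for H3-3B 14.2% occurred in H3-5, a copy with a median of 0.194 FPKM. H2AZ1 shared 22.8% of its stretches with pseudogenes, and H2AZ2 11.6% with pseudogenes and 8.14% with other genes. H2AX shared 3.84% of its stretches and H2AJ 3.22% with other genes, while H1-10 and MACROH2A1 shared no stretch. How the counting split reads shared with other genes is uncertain for H3-3A, H3-3B, H2AZ2, H2AX and H2AJ. The paper's index was built from protein-coding and long non-coding transcripts of another GENCODE release than the one searched here. H2AZ1 shared stretches with pseudogenes alone, a class the paper does not name, and whether their reads were counted as H2AZ1 was not tested.

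Depth was estimated from the values. Steps of 1 fragment in low FPKM put the lowest depth at about 32100000 fragments and the highest at about 88500000, which left an estimated 4150 or more fragments for each of 7 variants in each library and 130 to 510 for H2AJ. TPR mRNA in total RNA was 26.4 ± 1.57 FPKM (SD, n = 3) with the control shRNA, 4.17 ± 0.654 with TPR A and 4.66 ± 1.39 with TPR D. Of the osteoblast lineage markers SPARC, RUNX2 and COL1A1 were expressed, ALPL had a median of 3.76 FPKM and COL1A2 was near 0 (0.0302 to 0.744 FPKM). Of markers of other cell types ALB, CDH1 and PTPRC had medians of at most 0.511 FPKM and the epithelial EPCAM of 3.88 FPKM. The library labelled control nuclear replicate 2 had 21.8% of its FPKM from the mitochondrial genome, where the other 8 nuclear libraries had 0.774% to 2.42%, and the library labelled control total replicate 2 had 0.738%, where the other 8 total libraries had 15.8% to 24.7%. By their profiles over all genes these 2 libraries were closest to each other's fraction, and the other 25 to their own. The labels were kept as given, and the main results that rest on these libraries are also given without control replicate 2.

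H3-3B was the most abundant variant, with a median of 834 FPKM over the 27 libraries, above 99.0% of the genes tested. H2AZ1 (554 FPKM) and H3-3A (332 FPKM) followed. H1-10 (251 FPKM) and H2AZ2 (195 FPKM) were next and changed places between libraries, H1-10 being the higher in 16 of 27. H2AX (92.2 FPKM) and MACROH2A1 (87.1 FPKM) lay 1.06-fold apart in their medians, and H2AJ was lowest at 15.6 FPKM, 5.58-fold below MACROH2A1 and below it in 27 of 27 libraries. Of 32 replication-dependent histone genes in the table, 22 had a mean above 1 FPKM in this poly(A)+ RNA, and 2 had a mean above that of MACROH2A1.

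**Figure D1:**
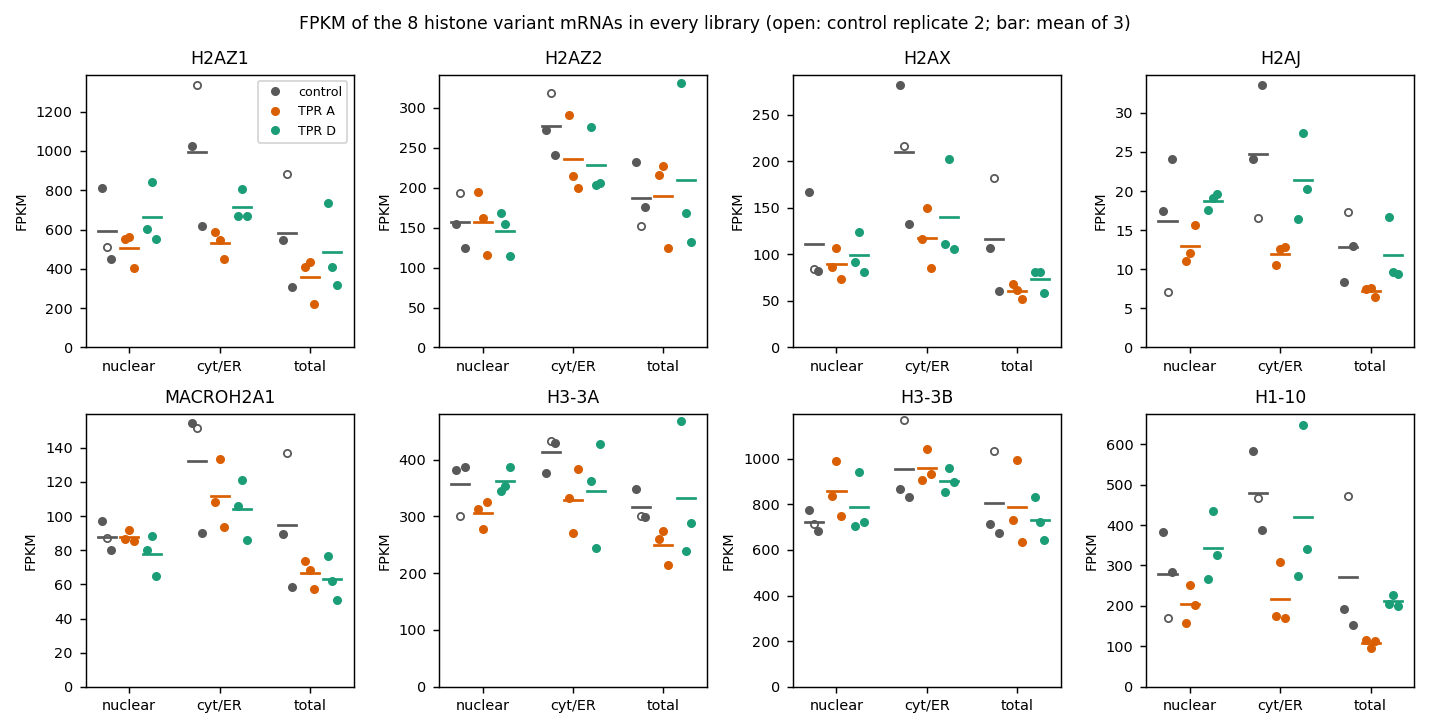
FPKM (linear axes from 0) of the 8 histone variant mRNAs in each nuclear, cytoplasmic/ER (cyt/ER) and total library, by shRNA. Points are libraries, open points are control replicate 2 and bars are means of 3. In control cells H2AZ2 lay higher in the 3 cytoplasmic/ER than in the 3 nuclear libraries, and the share of all genes that did so is not given.

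The first comparison was nuclear against cytoplasmic/ER RNA with the control shRNA, which places each mRNA before TPR is removed. The estimate of the N/C ratio was below 0 on the log2 scale for 8 of the 8 variants, and 2 of them, H2AZ2 and H2AX, passed the threshold. Levels are scaled shares of a library, so 0 lies near the median gene and does not mean equal amounts in both fractions. Lower or higher in the nucleus is meant in this relative sense. Fold changes and adjusted p-values are from limma over all genes tested with Benjamini-Hochberg adjustment. They are on the scale of log2(FPKM + 0.1), and a threshold of 0.05 is meant by passing or being called.

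H2AZ2, the less abundant mRNA for H2A.Z, had 154, 194 and 124 FPKM in the nuclear and 272, 319 and 241 FPKM in the cytoplasmic/ER libraries of control replicates 1, 2 and 3. The groups did not overlap, and the share of all genes for which this held is not given here. Of these nuclear libraries that of replicate 2 resembled total RNA. The log2 N/C ratio of H2AZ2 was -0.80 ± 0.31 (SE, limma adjusted p = 0.0436). H2AX, the variant phosphorylated at DNA breaks, had 167, 84.3 and 81.8 FPKM in the nuclear and 282, 217 and 132 FPKM in the cytoplasmic/ER libraries. Here the highest nuclear library lay above the lowest cytoplasmic/ER one, although within each culture the nuclear level was the lower, and the log2 N/C ratio was -0.90 ± 0.35 (limma adjusted p = 0.0459). A call was made for 39.4% of all genes in this comparison, 19.2% of all genes being called as lower in the nucleus, so 2 of 8 is near that background. At an unadjusted limma p under 0.05 there were 4 variants and 47.8% of all genes. The spread in limma is shared by all libraries, so each culture enters these calls. H2AX and MACROH2A1 were called when control replicate 3 was left out, H2AZ2 alone when TPR A replicate 1 or 3 or TPR D replicate 1 or 3 was, H2AX alone without TPR D replicate 2, and no variant without control replicate 1, control replicate 2 or TPR A replicate 2.

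The other 6 variants did not pass. H1-10, a linker histone, had a log2 N/C ratio of -0.80 ± 0.36 (limma adjusted p = 0.0792), H2AZ1 of -0.69 ± 0.36, H2AJ of -0.69 ± 0.34 and MACROH2A1 of -0.51 ± 0.25. The H3.3 mRNAs lay closest to the median over all genes tested, at -0.35 ± 0.20 for H3-3B and -0.18 ± 0.23 for H3-3A. The median over the 8 was -0.69 beside -0.01 over all genes tested. With nuclear and cytoplasmic/ER libraries paired by culture, 4 variants were called, H2AZ1, H2AZ2, H2AX and MACROH2A1 (limma adjusted p of 0.00653 to 0.0431), where that fit called 47.0% of all genes, 23.4% as lower in the nucleus. Without control replicate 2 no variant was called by limma (29.8% of all genes), 1 having an unadjusted p under 0.05, and the median was -0.42, while the replicate number as a block together with this omission left H2AZ2 and H2AX called (20.4% of all genes as lower).

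After TPR depletion none of the 8 ratios was called by limma with TPR A (28.4% of all genes, 13.2% as lower in the nucleus) or TPR D (31.7%, and 14.6% as lower). At an unadjusted limma p under 0.05 there were 0 variants with either, beside 39.7% and 41.9% of all genes. H2AZ2 had the lowest ratio with both shRNAs, at -0.58 for TPR A and -0.63 for TPR D. Paired by culture, it was called in TPR D cells (limma adjusted p = 0.0348, 18.2% of all genes being called as lower) and not in TPR A cells (17.4%). With the replicate number as a block instead, H2AZ2 was called with both shRNAs. The same held with control replicate 2 also left out, where MACROH2A1 was called with TPR D too. The shares of all genes called in these block fits are not given here.

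Culture by culture, the log2 N/C ratio of H2AZ1 with the control shRNA was -0.30, -1.34 and -0.43. With TPR A it was -0.08, 0.05 and -0.14, and with TPR D -0.14, 0.08 and -0.23. All 6 TPR-depleted cultures lay above all 3 control cultures, which held for 1 of the 8 variants and for 3.07% of all genes. The control culture at -1.34 is the one with the nuclear library of 21.8% mitochondrial FPKM. Leaving a control culture out cannot undo such a separation, so its persistence is no check on that library. Without that culture 4.09% of all genes were separated in this direction.

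For H2AX the control values were -0.72, -1.31 and -0.66, those with TPR A -0.42, -0.47 and -0.22, and those with TPR D -0.26, -0.69 and -0.33. The TPR A cultures lay above the controls and 1 TPR D culture lay among them. H1-10 had -0.58, -1.41 and -0.42 with the control shRNA, -0.13, -0.28 and 0.27 with TPR A, and -0.03, -0.57 and -0.02 with TPR D. H2AJ, whose protein resembles canonical H2A, had -0.44, -1.18 and -0.44 with the control shRNA, 0.08, -0.04 and 0.28 with TPR A, and 0.11, -0.51 and -0.00 with TPR D. For H2AX, H1-10 and H2AJ alike the TPR A cultures were above the controls and the TPR D replicate 2 culture was the lowest of the TPR-depleted ones. With TPR A the cultures of 4 variants, these 3 and H2AZ1, lay above the controls, beside 10.0% of all genes, and with TPR D those of H2AZ1 alone, beside 6.04%.

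The other 4 variants overlapped the controls with either shRNA. H2AZ2 had log2 N/C ratios of -0.79, -0.67 and -0.93 with the control shRNA, -0.57, -0.40 and -0.79 with TPR A, and -0.71, -0.38 and -0.80 with TPR D. H3-3A had 0.06, -0.48 and -0.12 with the control shRNA and -0.23 to 0.55 over the 6 TPR-depleted cultures, H3-3B had -0.13, -0.66 and -0.26 beside -0.31 to -0.02, and MACROH2A1 had -0.64, -0.75 and -0.14 beside -0.52 to -0.13. In each of the 3 the range of the TPR-depleted cultures met that of the controls.

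**Figure D2:**
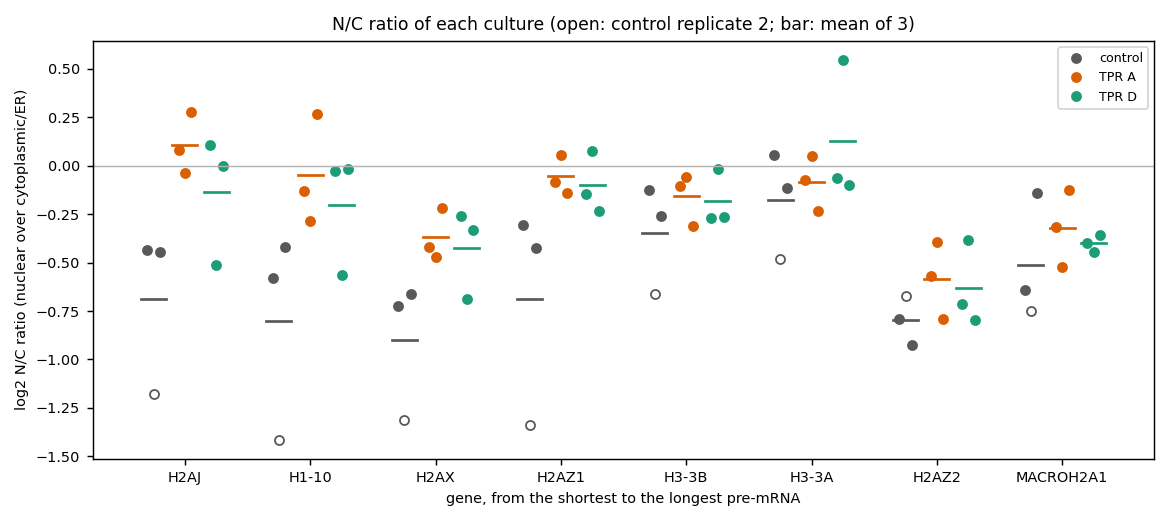
The log2 N/C ratio of each variant mRNA in each of the 9 cultures, ordered from the shortest canonical pre-mRNA (H2AJ) to the longest (MACROH2A1). Points are cultures, open points are control replicate 2 and bars are means of 3. The 6 TPR-depleted cultures of H2AZ1 lie above its 3 control cultures, and control replicate 2 is the lowest culture of 7 of the 8 genes.

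The N/C change, the log2 N/C ratio of TPR-depleted cells minus that of control cells, is the study's main measure. Averaged over both shRNAs it was 0.68 ± 0.44 (SE) for H1-10, 0.67 ± 0.42 for H2AJ, 0.61 ± 0.44 for H2AZ1 and 0.50 ± 0.43 for H2AX. It was 0.20 ± 0.28 for H3-3A, 0.19 ± 0.38 for H2AZ2, 0.18 ± 0.24 for H3-3B and 0.15 ± 0.30 for MACROH2A1. Thus 8 of 8 estimates were above 0, with a median of 0.35, beside 49.7% of all genes and a median of -0.00. None passed the threshold (limma adjusted p = 0.999), and 0 of the 14611 genes did (0.00%). At an unadjusted limma p under 0.05 there were 0 variants and 251 genes (1.72%).

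A 2-sided exact permutation test over the 84 splits of the 9 cultures into 3 and 6 was also run on single variants, and its smallest possible p is 0.0119. The exact p was 0.0119 for H2AZ1, 0.0238 for H2AX and for H1-10, and 0.0357 for H2AJ, and 0.190 to 0.369 for the other 4. Adjusted over all genes these exact permutation p-values were 0.366 to 0.728, and 10.3% of all genes had an unadjusted exact p under 0.05. Without control replicate 2 the N/C changes were 0.43 for H2AJ, 0.37 for H1-10, 0.29 for H2AX, 0.29 for H2AZ1 and 0.25 for H2AZ2, and at most 0.05 for H3-3A, MACROH2A1 and H3-3B. The exact p of H2AZ1 was then 0.0357, the smallest the 28 splits allow (1 after adjustment over all genes), and those of the other 7 were 0.107 or more. As the remaining control cultures of H2AZ1 were bound to stay lowest, its p is no separate check on control replicate 2.

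The labels of replicate 1 are written in another style from those of replicates 2 and 3, and the N/C change was therefore computed within each set. Within replicates 2 and 3 it was above 0 for 8 of 8 variants, with a median of 0.46. Within replicate 1, which has 1 culture per shRNA and so no test, it was above 0 for 6 of 8, with a median of 0.24 and a range of -0.13 to 0.53. With TPR A alone the N/C changes ran from 0.09 (H3-3A) to 0.79 (H2AJ), and with TPR D alone from 0.11 (MACROH2A1) to 0.60 (H1-10). Both rest on the same control cultures. Without control replicate 2 the ranges were -0.057 to 0.55 with TPR A and -0.0063 to 0.30 with TPR D, each with 1 of the 8 below 0.

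By the length of the canonical pre-mRNA, the 4 shortest of the 8, H2AJ, H1-10, H2AX and H2AZ1, had N/C changes of 0.50 to 0.68, and the 4 longest had 0.15 to 0.20. Spearman's rho across the 8 genes was -0.88, and -0.83 without control replicate 2, given as a description since the genes share all their libraries. It depends on the transcript taken: by the median over each gene's coding transcripts H3-3B, with 1321 nt and an N/C change of 0.18, was the second shortest, and rho was -0.57, or -0.48 without control replicate 2. Exon number (rho = -0.70, or -0.68 without control replicate 2) ordered them less closely than the canonical length and more closely than that median length. Of the 12242 protein-coding genes with a canonical transcript, 308 had a pre-mRNA no longer than that of H2AZ1, a limit set after the values were seen. Their median N/C change was 0.47 and 91.2% were above 0 (0.31 and 89.3% without control replicate 2), and in control cells their median log2 N/C ratio was -0.87. The 4 compact variants, at 0.50 to 0.68, lay above this median. Without control replicate 2 H2AX and H2AZ1, both at 0.29, lay below the 0.31 of the short genes, and no difference from the other short genes was tested. The 222 protein-coding genes with 1 exon had a median N/C change of 0.30, with 87.4% above 0. Without control replicate 2 these were 0.19 and 80.2%. Their median control log2 N/C ratio was -0.03, where H2AJ, H1-10 and H2AX, with 1 exon, were at -0.69, -0.80 and -0.90. This difference was not tested. For 22 replication-dependent histone genes over 1 FPKM the N/C change was above 0 in 22 of 22, with a median of 0.86. These values include control replicate 2, and none without it is given here.

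**Figure D3:**
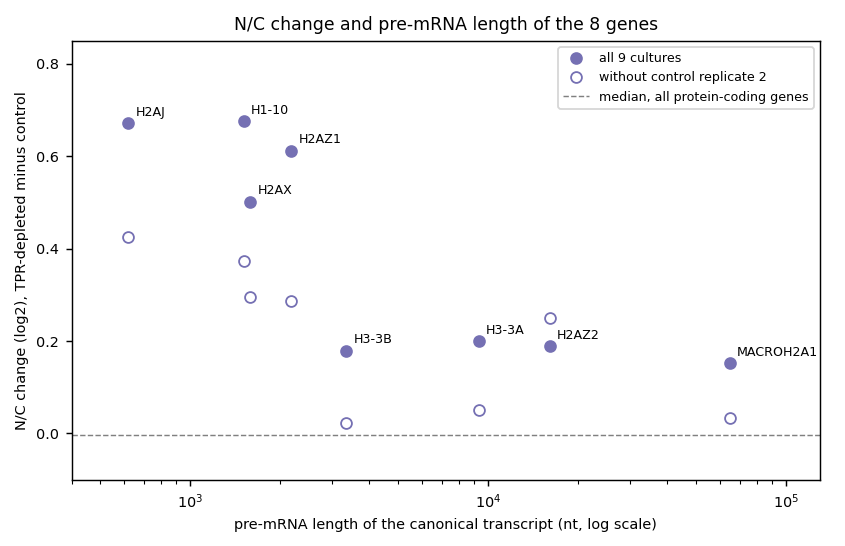
N/C change (log2, mean of TPR A and TPR D cultures minus control cultures) of each variant against the length of its canonical pre-mRNA in nt on a log axis. Filled points use all 9 cultures and open points leave out control replicate 2, and the dashed line is the median of all protein-coding genes (-0.00). Filled points run from 0.68 for H1-10 to 0.15 for MACROH2A1, and open points lie lower for 7 of the 8 genes.

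Levels were then compared within each fraction. FPKM are shares of a library, and fewer cells with an mRNA and less of it per cell cannot be told apart. In cytoplasmic/ER RNA the largest differences were with TPR A. H1-10 had 582, 468 and 389 FPKM with the control shRNA, 175, 309 and 169 with TPR A, and 274, 647 and 340.3 with TPR D. All TPR A libraries were below all control libraries, and the TPR D libraries spread across them. The log2 difference from the control was -1.15 ± 0.36 for TPR A (SE, limma adjusted p = 0.157) and -0.25 ± 0.36 for TPR D (limma adjusted p = 0.932).

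H2AJ had 24.1, 16.6 and 33.5 FPKM in control, 10.5, 12.5 and 12.9 in TPR A and 16.4, 27.4 and 20.3 in TPR D cytoplasmic/ER libraries. All TPR A libraries lay below the controls, 1 TPR D library lay just below them and the other TPR D libraries among them, with log2 differences of -0.95 ± 0.34 (limma adjusted p = 0.234) and -0.16 ± 0.34. H2AZ1 had 1023, 1333 and 620.3 FPKM in control, 589.8, 549 and 449 in TPR A and 669, 805 and 669 in TPR D libraries. Its log2 differences were -0.82 ± 0.36 (limma adjusted p = 0.362) and -0.39 ± 0.36. For H2AX the values were 282, 217 and 132 FPKM in control, 117, 149.9 and 85.8 in TPR A and 111, 202 and 106 in TPR D libraries, and both sets overlapped the controls, with log2 differences of -0.78 ± 0.35 and -0.57 ± 0.35.

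No variant was called by limma in the cytoplasmic/ER fraction with TPR A (0.623% of all genes), TPR D (0.575%) or their mean (0.643%). At an unadjusted limma p under 0.05 there were 4 variants with TPR A, all lower (11.6% of all genes in either direction and 5.87% lower), 0 with TPR D (9.42% of all genes) and 2 for the mean (11.4%). The TPR A libraries of 3 variants, H2AZ1, H1-10 and H2AJ, lay below all controls, as did those of 8.62% of all genes. Leaving out control replicate 2 brought H2AJ past the threshold with TPR A, at a log2 difference of -1.21 ± 0.27 (limma adjusted p = 0.0485, where 0.287% of all genes were called as lower). With the replicate number added as a block as well, H1-10 (-1.31 ± 0.26, limma adjusted p = 0.0131), H2AJ (-1.23 ± 0.27, limma adjusted p = 0.0182) and H2AX (-0.87 ± 0.22, limma adjusted p = 0.0436) were past it, in a fit chosen after the data were seen that called 1.71% of all genes as lower. The H3.3 mRNAs differed little, H3-3B by 0.05 ± 0.20 with TPR A and -0.04 ± 0.20 with TPR D, H3-3A by -0.31 ± 0.23 and -0.27 ± 0.23. H2AZ2 and MACROH2A1 differed by -0.29 to -0.18.

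In nuclear RNA, for the mean of both shRNAs, the differences ran from -0.17 ± 0.30 for H2AX to 0.18 ± 0.17 for H3-3B, with a median of -0.04 beside -0.02 over all genes. H3-3B had 776, 714 and 681 FPKM in control, 836, 989 and 751 in TPR A and 703, 942 and 724 in TPR D nuclear libraries, which overlapped. None of the 8 was called by limma with TPR A (0.903% of all genes), TPR D (0.479%) or the mean (0.808%), and none had an unadjusted limma p under 0.05, beside 12.2%, 9.13% and 11.8% of all genes. The nuclear control replicate 2 library moved several of these values. Without it the difference of H2AJ went from 0.11 to -0.39, and that of H1-10 from -0.02 to -0.33. With TPR A, H1-10 (-0.70 ± 0.32) and H2AJ (-0.66 ± 0.27) then had an unadjusted limma p under 0.05, as 9.77% of all genes did, and with the block added 3 variants (15.5% of all genes), none of them called.

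In total RNA H1-10 had 191, 472 and 153 FPKM with the control shRNA, 115, 95.6 and 114 with TPR A, and 205, 228 and 201 with TPR D. The 3 TPR A libraries lay below every control and every TPR D library. The log2 difference from the control was -1.09 ± 0.36 for TPR A (limma adjusted p = 0.172) and -0.11 ± 0.36 for TPR D. The control library at 472 FPKM is the one that resembled nuclear RNA, and without control replicate 2 the TPR A difference was -0.64 ± 0.32.

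H2AX had 107, 182 and 60.3 FPKM in control, 68.7, 62.2 and 51.7 in TPR A and 80.7, 80.9 and 58.6 in TPR D total libraries. They overlapped, with log2 differences of -0.74 ± 0.35 and -0.46 ± 0.35. MACROH2A1 had 89.8, 137 and 58.7 FPKM in control and 50.8 to 76.5 in the 6 TPR-depleted libraries, and its difference for the mean of both shRNAs was -0.41 ± 0.21, or -0.14 without control replicate 2. H2AX likewise went from -0.60 to -0.24. No variant was called by limma in total RNA with TPR A (0.821% of all genes), TPR D (0.753%) or the mean (1.14%), and at an unadjusted limma p under 0.05 there were 3 variants with TPR A, H1-10, H2AX and H2AJ, and 0 with TPR D or the mean, beside 12.6%, 14.6% and 16.1% of all genes. Without control replicate 2 the 3 with TPR A became 0, beside 8.32% of all genes. The total libraries with TPR A lay below all controls for H3-3A, H1-10 and H2AJ, as for 8.33% of all genes. H3-3B was near its control level, at -0.01 ± 0.17 for the mean, and H2AZ2 at 0.11 ± 0.27.

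**Figure D4:**
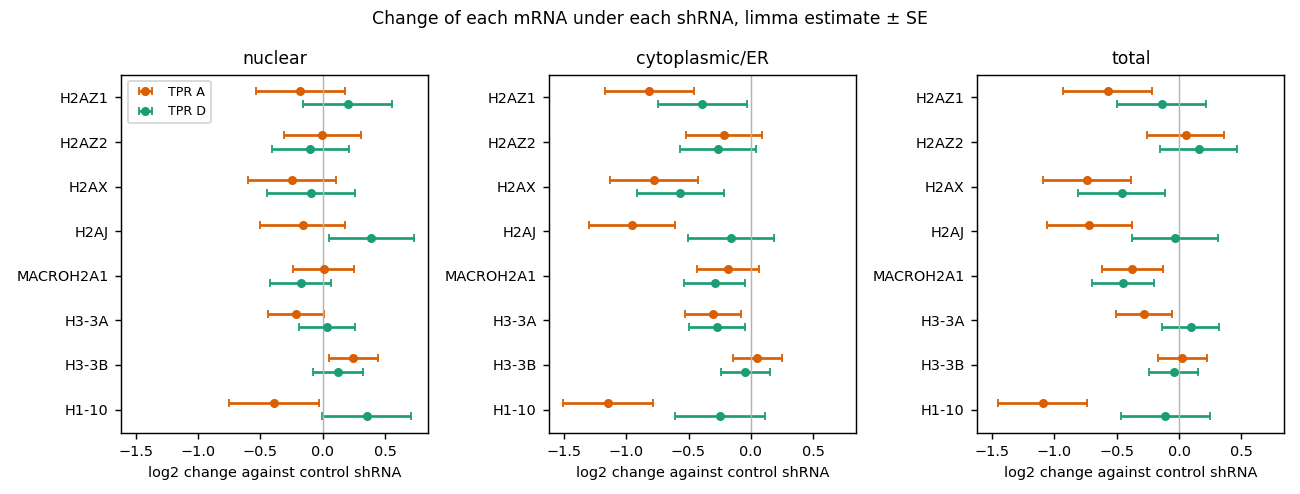
Log2 difference of each variant mRNA from the control shRNA in nuclear, cytoplasmic/ER and total RNA, for TPR A and TPR D. Points are limma estimates and bars are SE. H1-10 with TPR A lies at -1.15 in cytoplasmic/ER and -1.09 in total RNA, and its TPR D points lie at -0.25 and -0.11.

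The shRNAs were also compared directly. H1-10 was higher with TPR D than with TPR A by 0.98 ± 0.36 in total, 0.90 ± 0.36 in cytoplasmic/ER and 0.74 ± 0.36 in nuclear RNA (log2, SE), with limma adjusted p of 0.400, 0.432 and 0.616. H2AJ differed by 0.69 ± 0.34, 0.79 ± 0.34 and 0.55 ± 0.34 in the same order. In total RNA all TPR D libraries of both genes lay above all TPR A libraries, as did those of 7.20% of all genes. In cytoplasmic/ER RNA this held for H2AZ1 and H2AJ (5.18% of all genes), and in nuclear RNA for H3-3A, H1-10 and H2AJ (8.21%). None of the 8 was called by limma in total (0.281% of all genes), nuclear (0.315%) or cytoplasmic/ER RNA (0.637%). At an unadjusted limma p under 0.05 there was H1-10 in total (7.41% of all genes) and nuclear RNA (8.04%), and H1-10 and H2AJ in cytoplasmic/ER RNA (8.10%). With the replicate block and without control replicate 2, H1-10 was past the threshold in total (limma adjusted p = 0.0295, 1.01% of all genes being called as higher) and cytoplasmic/ER RNA (limma adjusted p = 0.0418, 1.39%). For the N/C ratio the shRNAs differed by -0.24 to 0.21, and none of the 8 was called by limma (0.00% of all genes), 0 having an unadjusted p under 0.05.

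The paralogues were also set against each other. H3-3B mRNA was 2.52-fold as abundant as H3-3A in control total RNA (1 SD of 0.40 on the log2 scale, n = 3), 3.11-fold with TPR A and 2.29-fold with TPR D. The control ratios ran from 2.05 to 3.44, the highest in replicate 2 (1033 and 300 FPKM), and those with TPR A from 2.81 to 3.64. H2AZ1 was 2.89-fold as abundant as H2AZ2 in control total RNA, from 1.76 to 5.83 over its 3 libraries, 1.87-fold with TPR A and 2.36-fold with TPR D, both within the control range. The 5.83 is also from control replicate 2 (885 and 152 FPKM), the total library that resembled nuclear RNA. In control replicates 1 and 3 H2AZ1 had 547 and 309 FPKM, and H2AZ2 232 and 176 FPKM. Mean ratios without control replicate 2 are not given here.

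Genes that deposit or read the variants were taken from lists, with limma calls over all genes. In control cells 20.2% of all genes were called higher in the nucleus. Of 7 genes of H2AX signalling, 4 were called higher in the nucleus and 0 lower: PRKDC, the DNA-PK catalytic subunit, at a log2 N/C ratio of 2.31 ± 0.25, ATM (2.55 ± 0.59) and ATR (2.05 ± 0.30), kinases that phosphorylate H2A.X, and TP53BP1 (0.75 ± 0.20), which binds near breaks. Their list median was 0.85, where H2AX mRNA was at -0.90. Of 11 H2A.Z exchange genes 3 were called higher in the nucleus, EP400, ACTR6 and INO80, and ZNHIT1 lower (-1.03 ± 0.34), with a list median of -0.14. Of 7 H3.3 deposition genes UBN2, a HIRA partner, was called higher (1.58 ± 0.33) and 0 lower, and of 8 general chaperones SUPT16H, NASP and NAP1L4 higher and ASF1B lower. ATM, ATR, PRKDC, SUPT16H, NASP and ACTR6 were also called higher in the nucleus with each TPR shRNA.

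After TPR depletion none of the 35 genes on these lists, with the variants MACROH2A2 and CENPA added, was called for the N/C change or for the level in total, nuclear or cytoplasmic/ER RNA with TPR A, TPR D or their mean. The median N/C change was -0.20 for H2AX signalling, -0.04 for H3.3 deposition, 0.11 for H2A.Z exchange and -0.04 for general chaperones, where that of the 8 variants was 0.35. Without control replicate 2 the median of the variants was 0.27, and those of the lists are not given here. The lists were not matched to the variants by pre-mRNA length.

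Over the 27 libraries MACROH2A1 and H2AX varied most alike (Pearson's r = 0.90), then H2AX and H2AZ1 (0.86), while H2AZ2 and H1-10 did not vary together (-0.00). With each library taken relative to its group mean, MACROH2A1 and H2AX still led (0.88) and H1-10 and H3-3A were lowest (-0.39). The genes outside the 8 whose levels followed the mean of the 8 most closely were NUDT1 (r = 0.96), MRPS34 (0.95) and MRPL9 (0.95). The points of each correlation are libraries that share cultures and depth.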

How the data were processed

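RNA Frac-Seq gave nuclear, cytoplasmic/ER and total poly(A)+ RNA of 9 U2OS cultures. The authors quantified reads with Salmon against GENCODE transcripts (build hg19, per the labels), summarised transcripts by gene in tximport, and the deposited values are FPKM of 34464 genes; software versions are not given in the sources used here. Counts were not analysed here, so count models were not run. The authors' own fold changes used DESeq2.

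FPKM of genes with a mean above 1 outside the mitochondrial genome (14611) were divided by median-of-ratios factors (0.954 to 1.06) and transformed as log2(FPKM + 0.1). limma 3.58.1 in R 4.3.3 (trend in eBayes, Benjamini-Hochberg, threshold 0.05) was fitted to all 27 libraries in 9 groups. It was also run on simulated data whose errors were independent between libraries, unlike the fractions of a culture here. That outcome is not given, and it is no check on the N/C comparisons. Comparing TPR D with TPR A was added later. Exact permutation tests, correlations and figures used Python 3.11.15, numpy 2.4.6, pandas 2.3.3, scipy 1.17.1 and matplotlib 3.10.9. Depth was estimated with genes of 1 transcript, where 79.9% to 86.0% of low values came within 0.1 of a whole fragment. Gene models were GENCODE release 44 on GRCh37 (32776 IDs matched, 1688 not).

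Nuclear and cytoplasmic/ER deviations of 1 culture had correlations of 0.223 to 0.469, above 0.1 in all 9 cultures, and the labels number them alike, so they were also paired. Between shRNAs all 3 same-numbered pairs were above 0.1 in 3 of 9 comparisons.

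The 8 variants and the gene lists were chosen with earlier results of these data known. Named genes were the 8 variants, list genes past the threshold, the 3 genes most like their mean, TPR and markers. Alternatives were the FPKM as deposited, other pseudocounts and minimum levels, each culture left out, replicate blocks, no trend, 1 TPR shRNA at a time and, added after the data were seen, replicates 2 and 3 alone and a block without control replicate 2. Labels do not say how separate the replicate cultures were, so p-values measure only the spread between these samples.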

Additional observations from a re-analysis of the deposited data

Results flagged for a closer look

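H1-10 in nuclear RNA stood apart between the shRNAs, as the 3 TPR A cultures lay below the control mean and the 3 TPR D cultures above it. Relative to that mean the log2 levels were -0.70, -0.07 and -0.40 with TPR A and 0.01, 0.72 and 0.33 with TPR D, a difference of 0.74 between the shRNAs. The difference itself did not pass limma's test (0.74 ± 0.36, SE, adjusted p = 0.616). The control mean includes the nuclear replicate 2 library that resembled total RNA. Against the mean of the other 2 control cultures the TPR A values were -1.01, -0.38 and -0.71 and the TPR D values -0.30, 0.41 and 0.017, so the TPR D cultures no longer all lay above it. Groups of 3 libraries are too small for an outlier test.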

How the results depend on the processing

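Against the control, no variant was called by limma for the N/C change or the total or nuclear level under any alternative run. In these fits the N/C change averaged over both shRNAs stayed above 0 for each of the 8. Within replicate 1 alone, where no fit was run, it was above 0 for 6 of 8, with H3-3A at -0.13 and H3-3B at -0.061. In control cells the N/C ratio called 2 variants, and 0 to 2 with a culture left out, 0 with no minimum level, 1 with a minimum mean of 5 FPKM, 1 with no trend in limma, 0 with replicates 2 and 3 alone, and 4 with either replicate block. The 4 include the block that pairs nuclear and cytoplasmic/ER libraries by culture. In cytoplasmic/ER RNA with TPR A, 0 to 1 variants were called with a culture left out, the 1 being H2AJ without control replicate 2, and 3 without control replicate 2 in a replicate block. With all cultures kept, the replicate block changed no other count of calls against the control. The sets of replicates 2 and 3 alone and the block without control replicate 2 were chosen after seeing the data. The cause of these differences was not tested.

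Small differences changed sign. With a culture left out the total level ran from -0.086 to 0.28 for H2AZ2, -0.23 to 0.015 for H3-3A and -0.10 to 0.15 for H3-3B, the nuclear level from -0.16 to 0.25 for H2AZ1, -0.21 to 0.12 for H2AZ2, -0.34 to 0.15 for H2AX, -0.33 to 0.23 for H1-10 and -0.39 to 0.49 for H2AJ, and the cytoplasmic/ER level of H3-3B from -0.080 to 0.16. In the replicate block without control replicate 2 the total level was -0.064 for H2AZ2 and 0.065 for H3-3B, and the nuclear level -0.14 for H2AZ1, 0.12 for H2AZ2 and -0.41 for H2AJ. Within replicates 2 and 3 the nuclear level was 0.18 for H2AX and 0.40 for H1-10, and the cytoplasmic/ER level of H3-3B -0.037. H3-3B was also at -0.024 in the cytoplasmic/ER fraction with FPKM as deposited and with no minimum, and at 0.060 in total RNA with a minimum mean of 5 FPKM. None of these was called.

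Depth limits only H2AJ, for which an estimated 130 fragments stood behind its lowest value. FPKM per gene carry no information on isoforms, and reads of H3-3A and H2AZ1 shared with copies cannot be told apart.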

Other observations

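CENPA, the centromeric H3 variant, and MACROH2A2 were also measured. CENPA had 20.3 to 35.1 FPKM in control, 14.9 to 25.9 in TPR A and 20.9 to 34.8 in TPR D total RNA, which overlapped. MACROH2A2 had 20.3 to 36.7, 15.4 to 24.98 and 22.9 to 27.6 FPKM in the same order. For both, the control log2 N/C ratio did not pass limma's threshold, at -0.48 ± 0.33 for CENPA and -0.08 ± 0.26 for MACROH2A2 (SE, limma). Of the nuclear RNAs used to check fractions, MALAT1 had 16.3 to 40.1 FPKM in the nuclear, 2.27 to 16.1 in the cytoplasmic/ER and 71.6 to 207 in the total libraries, and NEAT1 21.7 to 67.1, 4.11 to 17.9 and 56.8 to 150.3 FPKM, leaving out control replicate 2.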
